A study of Mus musculus with 2 samples.

Results

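CXC chemokines are small secreted proteins named for a pair of cysteines parted by 1 residue, and they direct the migration of leukocytes and progenitor cells through G protein-coupled receptors. The 10 genes described here were chosen by name: the neutrophil attractants Cxcl1, Cxcl2, Cxcl3 and Cxcl5, whose products carry a Glu-Leu-Arg (ELR) motif and act through CXCR2, the interferon-type genes Cxcl9, Cxcl10 and Cxcl11, whose products act through CXCR3 on activated lymphocytes, and Cxcl12, Cxcl14 and Cxcl16, which belong to neither class. This choice was made with earlier results of these data known. All 10 were found, each under 1 gene identifier, among 30491 genes, and they account for 26 of 88702 listed transcripts.

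The cells were fibro/adipogenic progenitors (FAPs), a stromal population resident in muscle that can give rise to fibroblasts and to fat cells, freshly sorted as primary cells from wild-type (WT) mice. Both groups grew in DMEM with 20% FBS and 1% penicillin-streptomycin, and for 24 h one received 1 µM mouse recombinant Musclin, a secreted peptide of muscle, and the other an equal amount of vehicle. Total RNA was sequenced, with 1 library per group, which leaves every difference without replicates and allows no test. The vehicle column is named BSA in the deposited table and was assigned by elimination, so each direction given rests on that assignment.

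NF-κB is the transcription factor through which interleukin-1, tumour necrosis factor and bacterial products switch on the ELR genes. The interferon-type genes answer mainly to interferons through transcription factors that bind the interferon-stimulated response element (ISRE). Stromal cells make Cxcl12 without stimulation, and its product holds haematopoietic and other progenitors in place through CXCR4.

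The proximal upstream sequences of 3 ELR genes and of Cxcl10 are shown because they hold the NF-κB and interferon elements that their classes are known for. The sequences are RefSeq's for GRCm38.p6 and run 5′ to 3′ up to the base before the RefSeq start of the gene. Capitals mark matches to the NF-κB consensus and to the ISRE core, GAAA, any 2 bases and GAAA again, on either strand.
Cxcl1: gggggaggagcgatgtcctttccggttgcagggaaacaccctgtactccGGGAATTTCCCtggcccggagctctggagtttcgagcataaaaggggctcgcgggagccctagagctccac
Cxcl2: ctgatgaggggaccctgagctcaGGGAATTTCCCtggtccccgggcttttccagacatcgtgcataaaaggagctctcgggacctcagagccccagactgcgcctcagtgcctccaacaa
Cxcl3: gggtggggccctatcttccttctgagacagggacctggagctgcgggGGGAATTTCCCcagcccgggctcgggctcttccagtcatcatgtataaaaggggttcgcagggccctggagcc
Cxcl10: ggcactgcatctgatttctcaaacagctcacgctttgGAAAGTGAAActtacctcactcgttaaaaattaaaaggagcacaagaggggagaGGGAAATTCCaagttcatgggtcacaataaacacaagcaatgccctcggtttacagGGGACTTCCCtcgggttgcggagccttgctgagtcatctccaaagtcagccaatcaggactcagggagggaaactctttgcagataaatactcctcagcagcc
They lie at chr5:90891125-90891244 (plus strand, Cxcl1), chr5:90903779-90903898 (plus strand, Cxcl2), chr5:90785981-90786100 (plus strand, Cxcl3) and chr5:92348890-92349139 (minus strand, Cxcl10).

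The same 10 bases, GGGAATTTCC, stand in all 3 ELR promoters, 71 bases before the RefSeq start in Cxcl1, 97 in Cxcl2 and 73 in Cxcl3. Counted from the start of the leading Ensembl transcript the distances are 67, 71 and 75 bases. On the other strand an NF-κB match overlaps each of them, shifted by 1 base. These 10 bases were read from the Cxcl1 promoter before they were counted, so their presence there was given. They occur in the 250 bases upstream of 28 of 32851 mouse promoters (0.0852%), the 3 ELR promoters included, and the wider NF-κB consensus in 3.90%. Over 50 bases around the site, without gaps, Cxcl1 and Cxcl2 were identical at 29 positions, Cxcl1 and Cxcl3 at 25 and Cxcl2 and Cxcl3 at 21. Each of these counts includes the 10 bases of the site, which are identical by construction because the sequences were lined up on it. Cxcl10 holds 2 NF-κB matches, first bases at -159 and -103, and the ISRE match GAAAGTGAAA at -213, an element found in 2.98% of promoters. Its match at -159, GGGAAATTCC, has the same 10 bases as the matches on the other strand of the 3 ELR promoters. Promoter entries were found for 7 of the 10 genes, and those of Cxcl5, Cxcl11 and Cxcl16 were not used here. No NF-κB match lay in the windows of Cxcl9, Cxcl12 and Cxcl14, while Cxcl14 held the ISRE core at -172 and Cxcl9 and Cxcl12 held neither motif. Of the other motifs searched on both strands, the GAS core TTCNNNGAA was present in 7.02% of promoters and among members in Cxcl14 alone, and the AP-1 site TGANTCA in 6.75% and in Cxcl10 alone. A match describes these letters and does not show binding.

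The deposited FPKM values (expression per transcript length and sequencing depth) move in steps, and from these the aligned sequence came to 6.69 Gb in the Musclin library and 6.76 Gb in the vehicle library. This is equal to 22455772 and 22676107 read pairs of 298 bases, called fragments below. Of the FAP marker list, 8 of 10 genes were at 1 FPKM or more in both libraries. On the scale of FPKM plus 1 described below, 1 of these was 2-fold or more higher, 1 lower and 6 between. Dcn, which encodes the matrix proteoglycan decorin, was the higher one at 181 against 64.8 FPKM, and the transcription factor gene Osr1 the lower at 15.1 against 34.8 FPKM. These calls depend on the measure. As ratios of aligned bases, Dcn (2.81) and Cd34 (2.08) were past 2-fold and Osr1 (0.624) was not. Of the list, the collagen gene Col1a1 (345 against 361 FPKM) was the most abundant with Musclin and the collagen gene Col3a1 (233 against 392 FPKM) with vehicle. Ly6a was at 284 against 223.5 FPKM, and the FAP sorting marker gene Pdgfra was at 87.2 against 79.9 FPKM. Cd34 was at 29.7 against 14.5 FPKM, while Pi16 and Dpp4 were under 1 FPKM in both. The 10 leukocyte marker genes in the table summed to 15.6 FPKM with Musclin against 18.6 FPKM with vehicle, of which Lyz2 gave 8.46 and 14.1 FPKM. The pan-leukocyte gene Ptprc was at 0.383 and 0.644 FPKM and Cd79a at 0 in both, whereas Csf1r, the macrophage growth factor receptor gene, was at 1.61 and 0.532 FPKM. The neutrophil gene S100a8 was at 1.495 FPKM with Musclin, resting on 16 fragments, and listed at 0 with vehicle. On the scale of FPKM plus 1, no other marker of another cell type at the floor was past 2-fold. These calls too depend on the measure. As ratios of aligned bases, Csf1r was past 2-fold at 3.12 (95% counting interval 2.29 to 4.31), from 170 against 55 fragments. Tek at 0.444 (0.366 to 0.537) and the muscle gene Des at 0.455 (0.266 to 0.759) were past it downward, with intervals that include 2-fold. Myh11 lay at the 2-fold limit. Endothelial markers summed to 3.14 against 5.80 FPKM, most of it Tek (1.58 against 3.45 FPKM), and satellite cell and muscle markers to 2.74 against 3.74 FPKM, most of it Acta1 (2.20 against 2.51 FPKM). Pericyte markers summed to 19.1 against 25.4 FPKM, where Cspg4 (13.97 against 21.5 FPKM) had the lower Musclin value and Myh11 (3.75 against 1.87 FPKM) the higher. Their part in the chemokine values was not tested, and fewer cells of a type and less RNA per cell cannot be told apart in bulk RNA.

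Cxcl1, Cxcl5 and Cxcl3 were the members farthest apart between the libraries. The other ELR gene, Cxcl2, had the lowest log2 ratio of the 7 members that were higher, an order that depends on the scale. By aligned bases its ratio of 8.08 (3.45 to 23.1) was above those of Cxcl10 (7.74), Cxcl9 (5.86) and Cxcl16 (2.92), with overlapping intervals. Gene levels are FPKM summed over a gene's transcripts, and each log2 ratio compares FPKM plus 1 in the Musclin library with that in the vehicle library, a scale that understates the difference of low genes. Genes past 2-fold on that scale that reached 1 FPKM in either library are called higher or lower. By that rule 7 members were higher, 1 was lower, 1 lay between and Cxcl11 was under the floor, against 1.71% of 12884 genes higher and 1.52% lower. Of the 7, Cxcl2, Cxcl3, Cxcl9 and Cxcl10 reached the floor with Musclin alone, so their call follows in part from the floor. Of the 5 members at 1 FPKM or more in both libraries, Cxcl1, Cxcl5 and Cxcl16 were higher, Cxcl12 was lower and Cxcl14 lay between, where 1.53% of 12052 genes were higher and 1.2% lower. The count of members that were higher was 3 with a pseudocount of 5. Because the members were chosen with earlier results of these data known, these counts describe them and are no independent evidence.

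**Figure D1:**
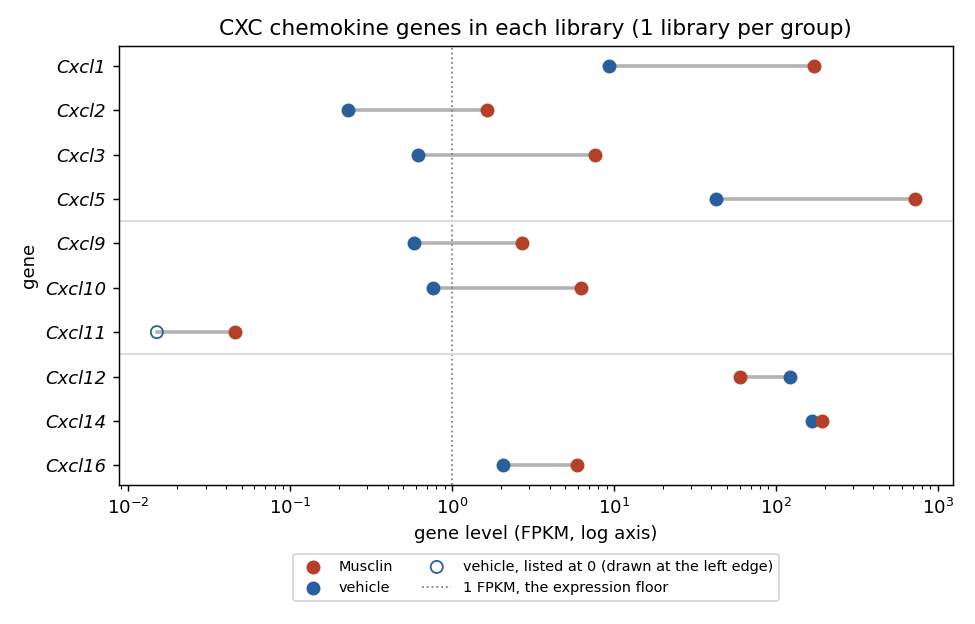
Level of each CXC member in the Musclin library (red) and the vehicle library (blue), in FPKM on a log axis, with 1 library per group. Cxcl5 stands at 720 against 42.5 FPKM and Cxcl1 at 173 against 9.26 FPKM, Cxcl12 is the member with the lower Musclin value (60.1 against 122 FPKM), and Cxcl11 with vehicle is listed at 0 and drawn at the left edge.

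Cxcl5 (ENSMUSG00000029371), called LIX in the mouse, was at 720 FPKM with Musclin against 42.5 FPKM with vehicle, which is 26044 fragments against 1603. Its ratio of aligned bases was 16.4, with a 95% counting interval of 15.6 to 17.3, and its log2 ratio of 4.05 ranked 4 from the top of 12884 genes. Such intervals cover counting error only, and reads copied by PCR are not independent molecules. Cxcl1 (ENSMUSG00000029380), or KC, was at 173 FPKM with Musclin against 9.26 FPKM with vehicle, from 4079 and 250 fragments. Its aligned-base ratio was 16.5 (14.5 to 18.8) and its log2 ratio of 4.09 ranked 3. Both genes were already expressed with vehicle, and their ratios were alike although Cxcl5 was the more abundant in each library.

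Cxcl3 (ENSMUSG00000029379) was at 7.58 FPKM with Musclin against 0.619 FPKM with vehicle, resting on 179 and 15 fragments. Its aligned-base ratio of 12.1 (7.11 to 22.0) has an interval that includes the ratios of Cxcl1 and Cxcl5. Cxcl2 (ENSMUSG00000058427), or MIP-2, was at 1.63 FPKM with Musclin against 0.228 FPKM with vehicle, from 48 and 6 fragments, with a ratio of 8.08 (3.45 to 23.1). These genes have low levels in both libraries next to Cxcl5 and Cxcl1, and the few vehicle fragments leave their ratios wide. On the log2 scale of FPKM plus 1 the median over the 4 ELR members was 3.23, where the median over all genes at the floor was -0.02. Of stretches of 50 bases in the leading coding transcripts, 5.75% of Cxcl2 and 6.31% of Cxcl3 also occur in the other gene, so a small part of their reads can be divided between them. Cxcl1 shares none with another gene.

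Interferon-type members were low in both libraries, and Cxcl9 and Cxcl10 were higher with Musclin. Cxcl10 (ENSMUSG00000034855), or IP-10, was at 6.26 FPKM with Musclin against 0.761 FPKM with vehicle, from 161 and 21 fragments. Its aligned-base ratio was 7.74 (4.90 to 12.8), and the log2 ratio of 2.04 ranked 30. Of its 50-base stretches, 8.04% also occur in Art3, whose span holds Cxcl10 on the opposite strand and which was at 3.64 against 2.98 FPKM. Cxcl9 (ENSMUSG00000029417), or MIG, was at 2.69 FPKM with Musclin against 0.582 FPKM with vehicle, from 174 and 30 fragments, with a ratio of 5.86 (3.96 to 8.94). The intervals of Cxcl9 and Cxcl10 overlap each other.

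Cxcl11 (ENSMUSG00000060183), or I-TAC, was at 0.0454 FPKM with Musclin, resting on 4 fragments, and listed at 0 with vehicle, where 3 fragments would be 0.0349 FPKM. No difference was detectable at this depth, since the interval of the ratio begins at 0.667. Of its 2 listed transcripts, ENSMUST00000122808 is classed as a polymorphic pseudogene and holds the 4 fragments, while the protein-coding ENSMUST00000077820 is listed at 0 in both libraries. Over the 3 interferon-type members the median log2 ratio was 1.22, which is the value of Cxcl9.

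Cxcl12, Cxcl14 and Cxcl16 went separate ways. Cxcl16 (ENSMUSG00000018920, chromosome 11, 70453983 to 70459984), a membrane-anchored chemokine for CXCR6, was at 5.88 FPKM with Musclin against 2.06 FPKM with vehicle, from 356 and 123 fragments. Its aligned-base ratio was 2.92 (2.37 to 3.62), and its log2 ratio of 1.17 was 0.62 with a pseudocount of 5. Its neighbour Zmynd15, which shares 19.0% of the 50-base stretches and lies on the opposite strand, was at 0.280 against 0.263 FPKM. Cxcl14 (ENSMUSG00000021508, chromosome 13, 56288643 to 56296551), a chemokine of unstimulated epithelium and stroma, was at 192 FPKM with Musclin against 167 FPKM with vehicle. Its ratio was 1.15 (1.11 to 1.18), so the libraries differed by more than counting error but by far less than 2-fold.

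Cxcl12 (ENSMUSG00000061353, chromosome 6, 117168535 to 117181367), or SDF-1, was the member that was lower, at 60.1 FPKM with Musclin against 122 FPKM with vehicle. Its log2 ratio was -1.01, and its aligned bases, 4348 against 8447 fragments, were 1.92-fold lower (1.85 to 1.996). The gene lies at the 2-fold limit, and it was not past that limit when gene values were aligned bases, when coding transcripts alone were summed, when the libraries were scaled by their median ratio or with a pseudocount of 5. The log2 ratio stayed negative in each of these, at -0.94 and -0.92 in the first 2.

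The order of the members was different in the libraries. With vehicle, Cxcl14 came first (167 FPKM), followed by Cxcl12 (122 FPKM), Cxcl5 (42.5 FPKM) and Cxcl1 (9.26 FPKM). With Musclin, Cxcl5 came first (720 FPKM), followed by Cxcl14 (192 FPKM), Cxcl1 (173 FPKM) and Cxcl12 (60.1 FPKM). Of the FPKM summed over all 10 members, 1169 with Musclin and 345 with vehicle, the 4 ELR genes held 77.2% with Musclin and 15.3% with vehicle. Cxcl5 alone held 61.6% and 12.3%. Cxcl12 held 5.15% with Musclin and 35.3% with vehicle. In both libraries the interferon-type genes held under 1%, at 0.770% and 0.389%.

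Spliced and intron-containing transcripts of Cxcl1 and Cxcl5 differed in their ratios. The 4-exon coding transcript of Cxcl1, ENSMUST00000031327 of 96 codons, was at 155 FPKM with Musclin against 6.89 FPKM with vehicle. The 1-exon ENSMUST00000201245, annotated as a retained-intron transcript, was at 18.1 and 2.37 FPKM. The aligned-base ratio was 22.5 (19.1 to 26.7) for the coding and 7.62 (6.18 to 9.47) for the retained-intron transcript, and these intervals do not overlap. The retained-intron share of the gene was 10.5% with Musclin and 25.6% with vehicle.

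In Cxcl5 the retained-intron transcript has 2 exons and the coding transcript 4. The coding transcript ENSMUST00000031318 was at 628 FPKM with Musclin against 29.7 FPKM with vehicle, and the retained-intron transcript ENSMUST00000202380 at 91.6 and 12.9 FPKM. The ratios were 21.2 (19.9 to 22.5) and 7.13 (6.52 to 7.81), and the retained-intron share was 12.7% with Musclin and 30.2% with vehicle. The coding ratio thus exceeded the retained-intron ratio 2.95-fold in Cxcl1 and 2.97-fold in Cxcl5, and 1.12-fold in Cxcl12. Of 2525 genes with at least 20 fragments of each kind in both libraries, 131 (5.19%) had a retained-intron ratio 2-fold or more under the coding ratio. In 155 it was 2-fold or more above the coding ratio. The median retained-intron share was 11.2% with Musclin and 11.1% with vehicle. Among the 28 of these genes that were 2-fold or more higher, the retained-intron ratio was 2-fold or more under in 8, Cxcl1 and Cxcl5 included, and above in 2. Those 28 were picked by their summed FPKM, which includes the coding transcripts, so the 8 follow in part from that choice. The shares and the ratios per transcript depend on how the authors' software divided reads between overlapping transcripts, which the intervals do not cover. The other ELR and interferon-type genes held too few retained-intron fragments to compare.

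**Figure D2:**
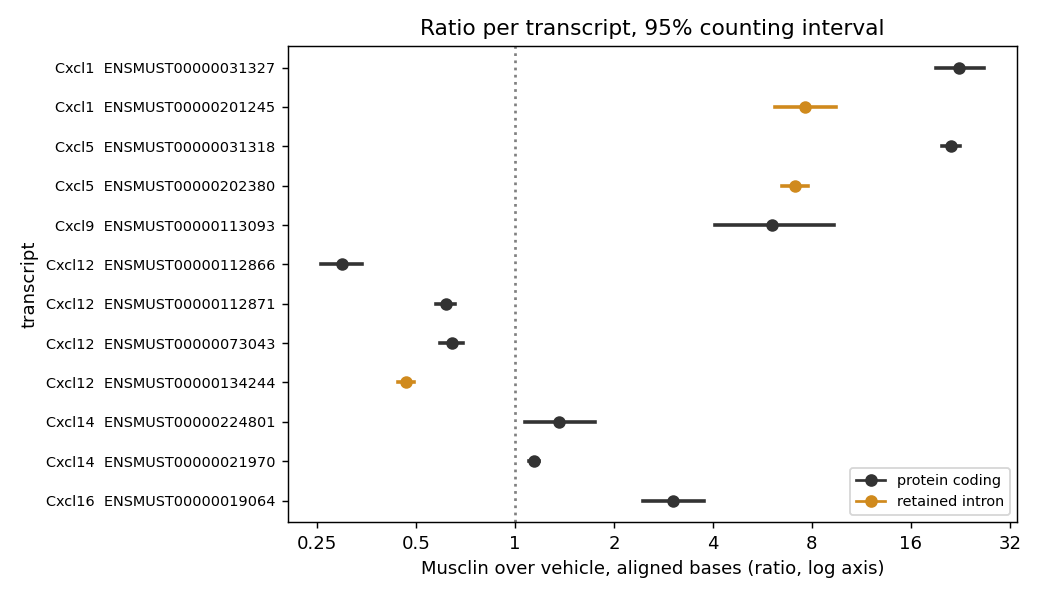
Ratio of aligned bases, Musclin over vehicle, on a log axis for each member transcript with at least 20 fragments in both libraries, with lines for the 95% counting interval, coding transcripts in black and retained-intron transcripts in orange. The coding transcripts of Cxcl1 and Cxcl5 lie at 22.5 and 21.2 and their retained-intron transcripts at 7.62 and 7.13, and all 4 Cxcl12 transcripts lie under 1.

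Transcripts of Cxcl12 were all lower with Musclin, by different amounts. ENSMUST00000112866, with 3 exons and the 89 codons of the alpha form, was at 5.84 FPKM with Musclin against 19.6 FPKM with vehicle, a ratio of 0.298 (0.257 to 0.343). ENSMUST00000112871, with 93 codons as in the beta form, was at 19.0 and 30.9 FPKM, a ratio of 0.616 (0.575 to 0.660). ENSMUST00000073043, with 119 codons as in the gamma form, was at 7.68 and 11.95 FPKM, a ratio of 0.642 (0.592 to 0.697). The interval of the alpha form lies below those of the other coding forms, which overlap each other. These intervals do not cover error in how the authors' software divided reads between the overlapping transcripts of the gene. The retained-intron transcript ENSMUST00000134244 held the largest share of the gene, 45.9% with Musclin and 48.7% with vehicle, at 27.6 and 59.3 FPKM. In Cxcl14 the transcript ENSMUST00000021970 held 97.5% of the FPKM with Musclin and 97.9% with vehicle.

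The authors' deposited table marks 8 of the 26 member transcripts as significant, of which 6 have the higher FPKM in the Musclin library and 2 the lower, where 1.69% of all transcripts are marked higher and 1.72% lower. The 6 are both transcripts of Cxcl1 and of Cxcl5, the coding transcript of Cxcl16 and that of Cxcl9, and the 2 are ENSMUST00000112866 and ENSMUST00000134244 of Cxcl12. The authors' deposited table gives the coding transcript of Cxcl9 a fold of 6.01 and a q-value of 3.65e-23. For the coding transcripts of Cxcl3 and Cxcl10 the authors' deposited table gives larger folds, 12.5 and 9.22, with a p-value of 1.

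That p-value goes with depth. All 65725 transcripts with under 20 fragments in the library with fewer have a deposited p-value of 1, and of 20473 with 30 or more 0.293% have it. Cxcl3 had 14 vehicle fragments in this transcript and Cxcl10 had 16, whereas Cxcl9 had 29. Among transcripts with under 20 fragments in one library and at least 100 in the other, all 776 have a deposited p-value of 1. Every transcript of Cxcl2, Cxcl3 and Cxcl10 has under 20 fragments in the library with fewer, and none of them is marked in the authors' deposited table. The shares of all transcripts marked, 1.69% higher and 1.72% lower, include the 65725, so they are lower than shares over deeper transcripts alone.

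**Figure D3:**
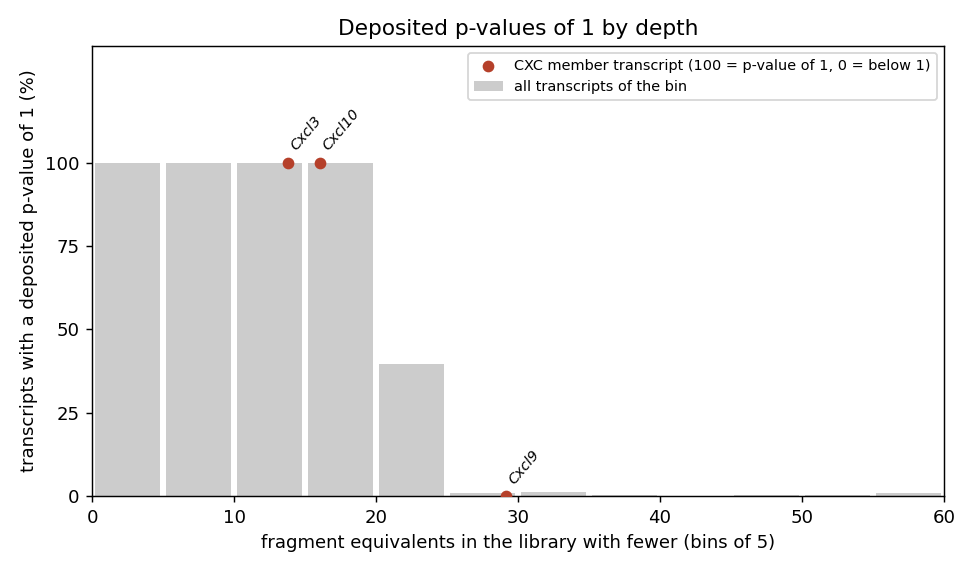
Share of transcripts with a deposited p-value of 1 (bars, in %) by the number of fragments in the library with fewer, in bins of 5, and the coding transcripts of members with at least 100 fragments in the other library (red). Every bin under 20 fragments stands at 100%, where Cxcl3 and Cxcl10 lie, while Cxcl9 lies at 29 fragments with a p-value under 1.

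Of the members, 7 form a pair of clusters on chromosome 5 (GRCm38). The ELR cluster spans 147 kb from 90759360 to 90905938, with Cxcl5 (90759360 to 90761624), Cxcl3 (90786103 to 90789600), Cxcl1 (90891241 to 90893115) and Cxcl2 (90903871 to 90905938), all on the plus strand. Cxcl9 (92321347 to 92328079), Cxcl10 (92346638 to 92348889) and Cxcl11 (92359544 to 92365485) span 44.1 kb on the minus strand. Between Cxcl5 and Cxcl3 lie Ppbp and Pf4, platelet chemokine genes of the same family. Ppbp was at 3.89 FPKM with Musclin against 1.501 FPKM with vehicle, so that its log2 ratio was 0.97 and its ratio of aligned bases 2.59 (1.76 to 3.90), while Pf4 was at 0.205 and 0.141 FPKM from 2 fragments each.

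Most measured neighbours of the clusters lay within 2-fold, and of all genes at the floor 1.71% were higher and 1.52% lower. Within 300 kb of the ELR cluster 5 genes that are not members reached 1 FPKM, of which 1 was 2-fold or more higher and none lower on the scale of FPKM plus 1. It was Ereg, which encodes the growth factor epiregulin, at 37.3 FPKM with Musclin against 11.7 FPKM with vehicle and a log2 ratio of 1.60. Ppbp, inside the cluster, is also among the 5 and fell just short on that scale, at 0.97. Its ratio of aligned bases, 2.59 (1.76 to 3.90), was past 2-fold. Mthfd2l, a mitochondrial folate enzyme gene beyond Cxcl2, had a log2 ratio of 0.23, and Rassf6, on the other side of Cxcl5, was at 2.18 and 1.10 FPKM. Around the interferon-type cluster 11 such genes reached 1 FPKM, of which 1 was higher, U90926 at 5.12 against 1.85 FPKM, and none lower. The nearby genes Sdad1 (11.9 against 12.6 FPKM) and Nup54 (17.2 against 21.3 FPKM) had log2 ratios of -0.08 and -0.29.

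**Figure D4:**
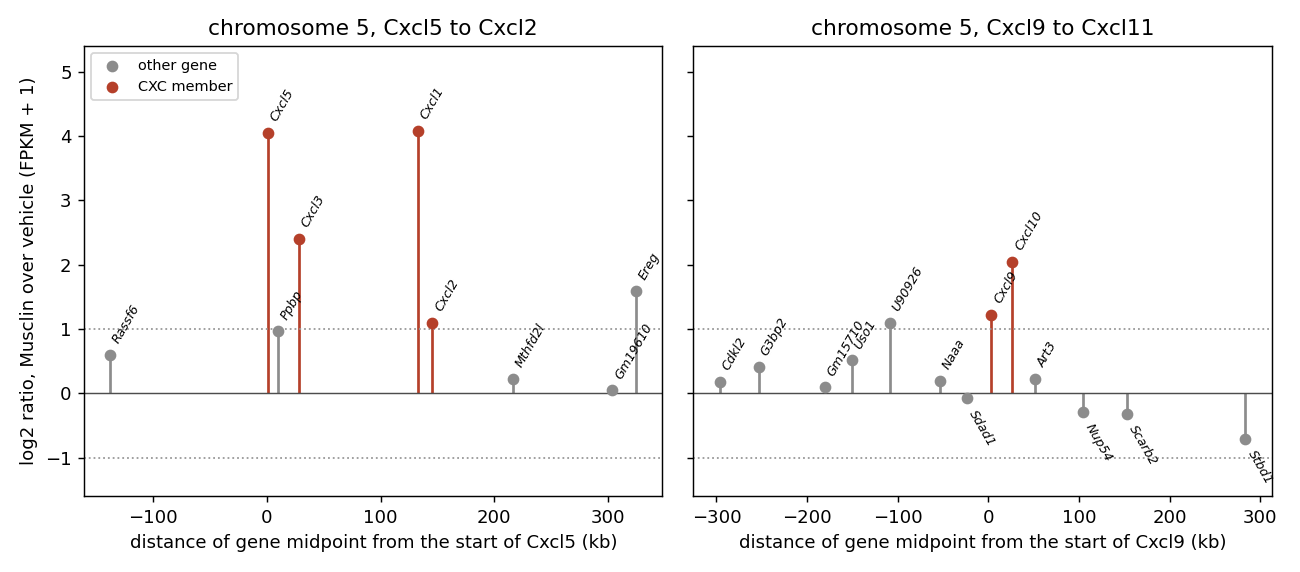
Log2 ratio (FPKM plus 1) of each gene at 1 FPKM or more in either library within 300 kb of the chromosome 5 clusters, against the distance of its midpoint from the start of Cxcl5 (left) or Cxcl9 (right), with members in red and dotted lines at 2-fold. Near the ELR cluster Ereg, at 1.60, is the 1 gene past 2-fold on this scale that is not a member, and Ppbp, at 0.97, lies just under the line.

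Genes for CXC and atypical chemokine receptors were mostly near 0. Of 9 such genes in the table, Ackr3, the scavenging receptor of CXCL12 and CXCL11, was the 1 at 1 FPKM or more, at 21.2 FPKM with Musclin against 12.5 FPKM with vehicle, with an aligned-base ratio of 1.67 (1.53 to 1.83). Cxcr4 was at 0.509 and 0.662 FPKM and Cxcr6 at 0.444 and 0.193 FPKM, while Cxcr3 was listed at 0 with Musclin and at 0.0255 FPKM, 1 fragment, with vehicle. None of 9 measured genes for enzymes and proteoglycans that process, shed or present chemokines was past 2-fold, with a median log2 ratio of 0.08. Sdc4, a heparan sulphate proteoglycan gene, was at 54.9 against 31.9 FPKM, and Adam10, whose protease sheds CXCL16, at 33.2 against 29.1 FPKM. Mmp2, the most abundant gene of that list, was at 241 against 276 FPKM.

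Of 14 measured inducers and regulators of ELR genes, 3 were 2-fold or more higher and none lower, with a median log2 ratio of 0.46. Over all 12884 genes at the floor, 1.71% were higher and 1.52% lower. The gene lists were chosen with earlier results of these data known. Nfkbia, the NF-κB inhibitor gene that NF-κB itself induces, was at 31.7 FPKM with Musclin against 8.23 FPKM with vehicle. Tnfaip3, another feedback inhibitor gene, was at 4.81 against 1.14 FPKM. Il1a, which encodes interleukin-1 alpha, was at 1.60 against 0.0121 FPKM, from 71 fragments and 1, a ratio of 71.7 (12.5 to 2871). It reached the floor with Musclin alone. At 1 FPKM or more in both libraries 2 of 13 genes of the list were higher, where 1.53% of all such genes were. Tnfrsf1a, the most abundant gene of the list, was at 88.0 against 91.3 FPKM.

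Of 9 measured inducers and regulators of interferon-type genes, 2 were 2-fold or more higher and none lower, with a median of 0.43. Beside this list and the mRNA decay list below, 1.71% of all genes at the floor were higher and 1.52% lower. Irf7, an interferon regulatory factor gene, was at 19.6 FPKM with Musclin against 2.58 FPKM with vehicle, and Stat2, a transcription factor gene of the interferon pathway, at 25.3 against 9.50 FPKM. Ifnar1, which encodes a type I interferon receptor chain and was the most abundant with Musclin, was at 25.9 against 18.9 FPKM, and the interferon-gamma receptor gene Ifngr1, the most abundant with vehicle, at 23.0 against 19.6 FPKM. Of the interferon genes themselves the list holds Ifng and Ifnb1 alone, and both were under the floor. Ifng was at 0.127 against 0.691 FPKM, from 3 and 19 fragments, and Ifnb1 at 0 in both libraries. Of 9 genes that control the decay and stability of chemokine mRNA, 1 was higher and none lower, with a median of 0.11. It was Zc3h12a, which encodes the endonuclease Regnase-1, at 32.04 against 6.20 FPKM, whereas Zfp36, the tristetraprolin gene, was at 9.32 against 7.58 FPKM and Zfp36l2, the most abundant, at 43.6 against 55.6 FPKM.

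**Figure D5:**
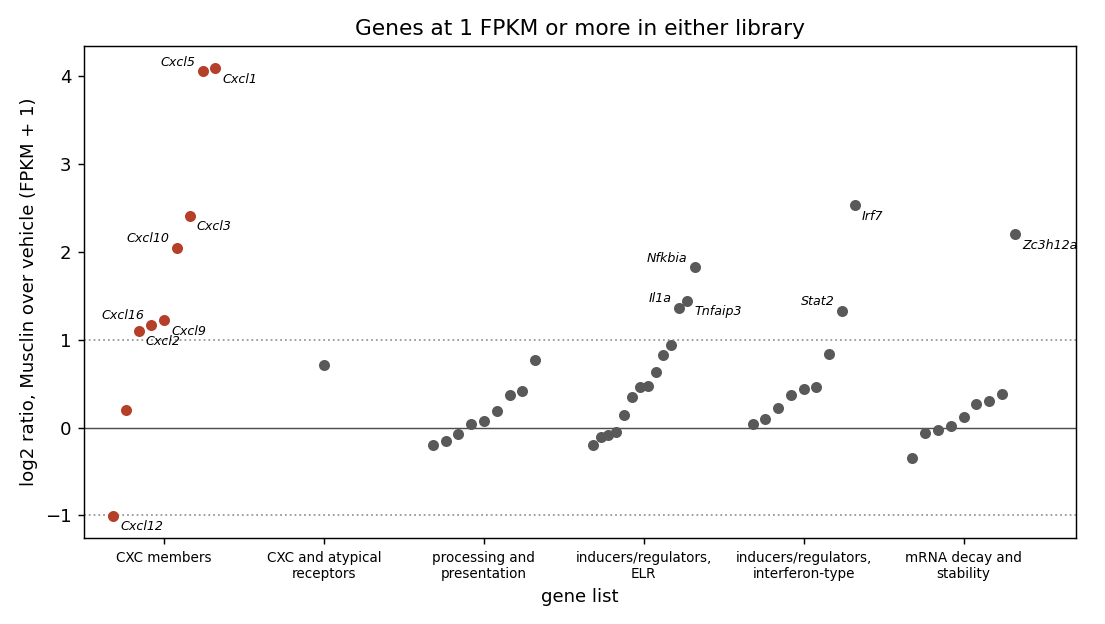
Log2 ratio (FPKM plus 1) of each gene at 1 FPKM or more in either library, for the CXC members (red) and for lists of related genes (grey), with dotted lines at 2-fold. Cxcl1 and Cxcl5 lie above 4, and the genes past 2-fold in the other lists are Nfkbia, Tnfaip3, Il1a, Irf7, Stat2 and Zc3h12a.

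The ELR members also share a feature of their 3′ untranslated regions, the AU-rich pentamer ATTTA, an element through which many cytokine mRNAs are degraded. It occurs 11 times in the 734 bases of Cxcl2, 7 times in the 592 bases of Cxcl1, 5 times in the 645 bases of Cxcl3 and 5 times in the 1111 bases of Cxcl5. Of 11318 genes at the expression floor with such a region, 4.85% hold as many as Cxcl2, 12.9% as many as Cxcl1 and 21.4% as many as Cxcl3 and Cxcl5, and the median gene holds 1 in a median length of 1049 bases. Per kilobase, 0.353% of genes have as many as Cxcl2, 0.707% as many as Cxcl1, 2.14% as many as Cxcl3 and 8.73% as many as Cxcl5. The longer form TATTTAT is present in all 4 ELR genes, from 1 time in Cxcl5 to 7 in Cxcl2, and in 29.4% of genes. Cxcl9, Cxcl10, Cxcl12 and Cxcl16 hold 2 or 3 pentamers and no TATTTAT, and Cxcl14 holds neither. Counts were taken in the leading coding transcript of each gene from its reference sequence.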

How the data were processed

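RNA was extracted with TRIzol and sequenced on libraries made by standard Illumina protocols, per the labels. The authors deposited 1 table of transcripts with an FPKM column for each condition, per the file headers. The deposited fold is the ratio of those columns, where 0.0001 stands in for a 0, its log2 is in a further deposited column, and the deposited p-value and q-value come from a test not given in the sources used here. StringTie, DESeq2 and edgeR are named without roles per the submitters' processing notes. For aligner and build, neither is named there: not given in the sources used here. All 26 member transcripts have the same start and end in GENCODE vM21, so positions are printed as GRCm38.

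FPKM were summed per gene. Depth came from FPKM times length in single-exon genes with 1 transcript, where 74.0% of 4063 values with Musclin and 74.3% of 3974 with vehicle were whole numbers of bases within 0.1, against about 19% for a typical wrong step. The commonest totals, 149 and 298 bases, were taken as a read and a pair. Exact Clopper-Pearson intervals (95%, scipy 1.17.1) are for the ratio of fragments and cover counting error only. The procedure was tested on simulated data. The members and gene lists were chosen with earlier results of these data known. The rule for named genes was all members, of each list the genes at 2-fold or more and the highest expressed, and the neighbours within 300 kb at 1 FPKM or more, of which the text gives some. Pf4, Adam10, Sdc4, Zfp36, the receptor and interferon genes given under the floor and the other markers given were added after their values were seen. From the interferon regulator list 1 gene is not reported here. Alternatives were pseudocounts of 0.1 and 5, 2 other scalings, aligned bases, coding transcripts alone and other floors.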

Additional observations from a re-analysis of the deposited data

How the results depend on the processing

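With 1 library per group no replicate could be left out. No paired analysis was possible because each group has 1 library. At pseudocounts of 0.1 and 5 the genes 2-fold or more higher were 400 and 97 in place of 220 and those lower 360 and 71 in place of 196, and with aligned bases they were 403 and 373. With a pseudocount of 5, 3 members were higher in place of 7, and with a pseudocount of 5, median ratio scaling, aligned bases or protein-coding transcripts alone 0 were lower in place of 1, Cxcl12, whose log2 ratio lies at the limit. The ELR median of 3.23 was 3.75 at a pseudocount of 0.1, 2.40 at 5, 3.75 with aligned bases and 3.36 with protein-coding transcripts alone. The interferon-type median of 1.22 was 2.03, 0.46 and 2.49 under the first 3 of these. Over 10 members and 6 alternatives, 18 of 60 log2 ratios moved by more than counting error, and none of a member past 2-fold changed sign. A pseudocount shrinks the ratios of low genes by construction. Depth limits Cxcl2, Cxcl3 and Cxcl11, which rest on 6, 15 and 0 vehicle fragments.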
